A study of Mus musculus with 16 samples.

Results

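Intermediate filament genes were followed through cultured mouse cells carrying a mutation of Actb, Actg1 or Kindlin-2. The 10 genes were chosen by name: Krt7, Krt8, Krt18, Krt19, Vim, Nes, Nefl, Nefm, Lmna and Lmnb1, of 26653 genes found in 3 tables of normalised read counts. All 10 had a value in the embryonic stem cell (ESC) table of 23083 genes, 7 of 10 in the embryonic fibroblast (MEF) table of 21615 and 8 of 10 in the kidney fibroblast (MKF) table of 18288. Krt18, Nefl and Nefm were not analysed here in MEFs, nor Nefl and Nefm in MKFs. The study asked how cells adapt their transcription to a mutant gene, and compared 8 groups of 2 libraries, 16 in all. The groups were Actb knockout (KO) ESCs, ESCs with the whole Actb locus deleted and wild-type ESCs; Actg1 KO MEFs, MEFs with the whole Actg1 locus deleted and wild-type MEFs; and Kindlin-2 KO MKFs and MKFs carrying the floxed Kindlin-2 gene, an allele made ready for deletion by Cre recombinase. The labels give no strain, clone, age or time, and it is not stated that the libraries of a group are separate cultures. The p-values below therefore reflect how far the libraries of a group differ, and that spread could be technical only.

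Intermediate filaments are rope-like polymers that, with actin filaments and microtubules, make up the cytoskeleton. Keratins polymerise as pairs of a type I chain (Krt18, Krt19) and a type II chain (Krt7, Krt8) and are known for marking epithelia, where desmosomes anchor them. Vimentin (Vim) is the filament of mesenchymal cells, nestin (Nes) co-assembles with it in progenitor cells, the neurofilament chains (Nefl, Nefm) build the filaments of axons, and lamins A/C (Lmna) and B1 (Lmnb1) form the meshwork under the nuclear envelope.

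The summed values per library were 16022043 to 16529089 in ESCs, 20305511 to 22094490 in MEFs and 15565648 to 16324223 in MKFs, and the estimated reads counted on genes 12730000 to 22820000, 19250000 to 24470000 and 14980000 to 17160000. The 2 libraries of a group correlated at 0.981 to 0.996 across genes. The disrupted gene was lower in every mutant library. Actb stood at 23650 and 22707 normalised read counts in KO ESCs, 2372 and 2336 in locus-deleted ESCs, and 36364 and 34140 in wild-type ESCs. Actg1 stood at 1004 and 1026 in KO MEFs, 25 and 15 in locus-deleted MEFs, and 5737 and 5672 in wild-type MEFs. Fermt2, which encodes Kindlin-2, stood at 1251 and 1240 in KO MKFs and 3078 and 3142 in floxed MKFs. All 10 pluripotent cell markers were present in the ESC table, with sums of 62643 or more in mutant and 57568 or more in wild-type libraries. The MKF label was not matched by its markers: 6 of 10 fibroblast markers had a value there, summing to 165 in both KO libraries and 526 to 589 in the floxed ones, Col1a1 at 10 and 8 in KO and 49 and 64 in floxed MKFs, while the kidney tubule markers Pax8 (2238 and 2219 in KO, 2044 and 2126 in floxed MKFs) and Cdh16 (3160 and 3005 in KO, 1510 and 1571 in floxed MKFs) were abundant in both groups. Of 8 kidney tubule markers looked for, 5 had a value, and 2 of them were lower in KO. These were Lrp2 (734 and 769 in KO, 3500 and 3310 in floxed MKFs) and Aqp1 (1010 and 1071 in KO, 1422 and 1368 in floxed MKFs). The name MKF is kept below as the label only.

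The genes lie on GRCm38 as follows. Krt7 (ENSMUSG00000023039) is on chromosome 15 at 101411043 to 101430313, plus strand. Krt8 (ENSMUSG00000049382) is on chromosome 15 at 101996698 to 102004482, minus strand, and Krt18 (ENSMUSG00000023043) at 102028180 to 102032027, plus strand. Krt8 and Krt18 thus point away from each other with 23.7 kb between them, in which the annotation has 1 other gene, the lincRNA Gm36026. Krt19 (ENSMUSG00000020911) is on chromosome 11 at 100140810 to 100148665, minus strand, Vim (ENSMUSG00000026728) on chromosome 2 at 13573927 to 13582826, plus strand, and Nes (ENSMUSG00000004891) on chromosome 3 at 87971078 to 87980451, plus strand. Lmna (ENSMUSG00000028063) is on chromosome 3 at 88480147 to 88509956, minus strand, and Lmnb1 (ENSMUSG00000024590) on chromosome 18 at 56707813 to 56753424, plus strand. Nefl (ENSMUSG00000022055, chromosome 14 at 68083863 to 68089095, plus strand) and Nefm (ENSMUSG00000022054, 68082590 to 68124846, minus strand) share 1108 exonic bases on opposite strands, 32.8% of Nefl and 19.2% of Nefm. Whether counting used the strand is not given, so part of the reads of each neurofilament gene could belong to the other. Krt8 has 1 annotated pseudogene of its name and shares 101 exonic bases with Gm36026.

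Levels of different genes were compared per kilobase of exon and within a table, as the tables were normalised separately. In wild-type ESCs the B-type lamin gene led, with Lmnb1 at 4863 to 5351 per kb, Vim next at 661 to 846 and Lmna at 70.1 to 72.8. The keratins were low there: Krt18 (41.8 to 61.2 per kb) and Krt8 (47.0 to 53.6) overlapped, and Krt7 was last at 0.851 to 1.42. In wild-type MEFs Vim came first at 26610 to 27400 per kb, followed by Lmna (2445 to 2731), Lmnb1 (1840 to 1854) and Nes (625 to 649), with Krt19 the highest keratin at 91.6 to 108 and Krt7 and Krt8 overlapping below 5. The floxed MKFs had Vim first (6861 to 6994 per kb), then Lmnb1, Nes and Krt18 (1354 to 1449). The gene in first place differed from that of the control in 1 of the 5 mutant groups: in Kindlin-2 KO MKFs Krt18 stood first at 9288 to 9579 per kb, above Vim at 5628 to 5825, whereas Lmnb1 led in all 3 ESC groups and Vim in all 3 MEF groups. That lead depends on the length used. By the longest transcript of each gene, Krt18 stood at 9288 and 9579 and Vim at 9123 and 9443 in KO MKFs, so their ranges overlapped. The 10 genes, as far as present, took 0.444 to 0.472% of the summed values in KO MKFs against 0.357% in both floxed libraries; 0.280 to 0.290% in Actg1 KO, 0.498 to 0.546% in locus-deleted and 0.707 to 0.709% in wild-type MEFs; and 0.146 to 0.154% in Actb KO, 0.121 to 0.140% in locus-deleted and 0.126 to 0.132% in wild-type ESCs.

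**Figure D1:**
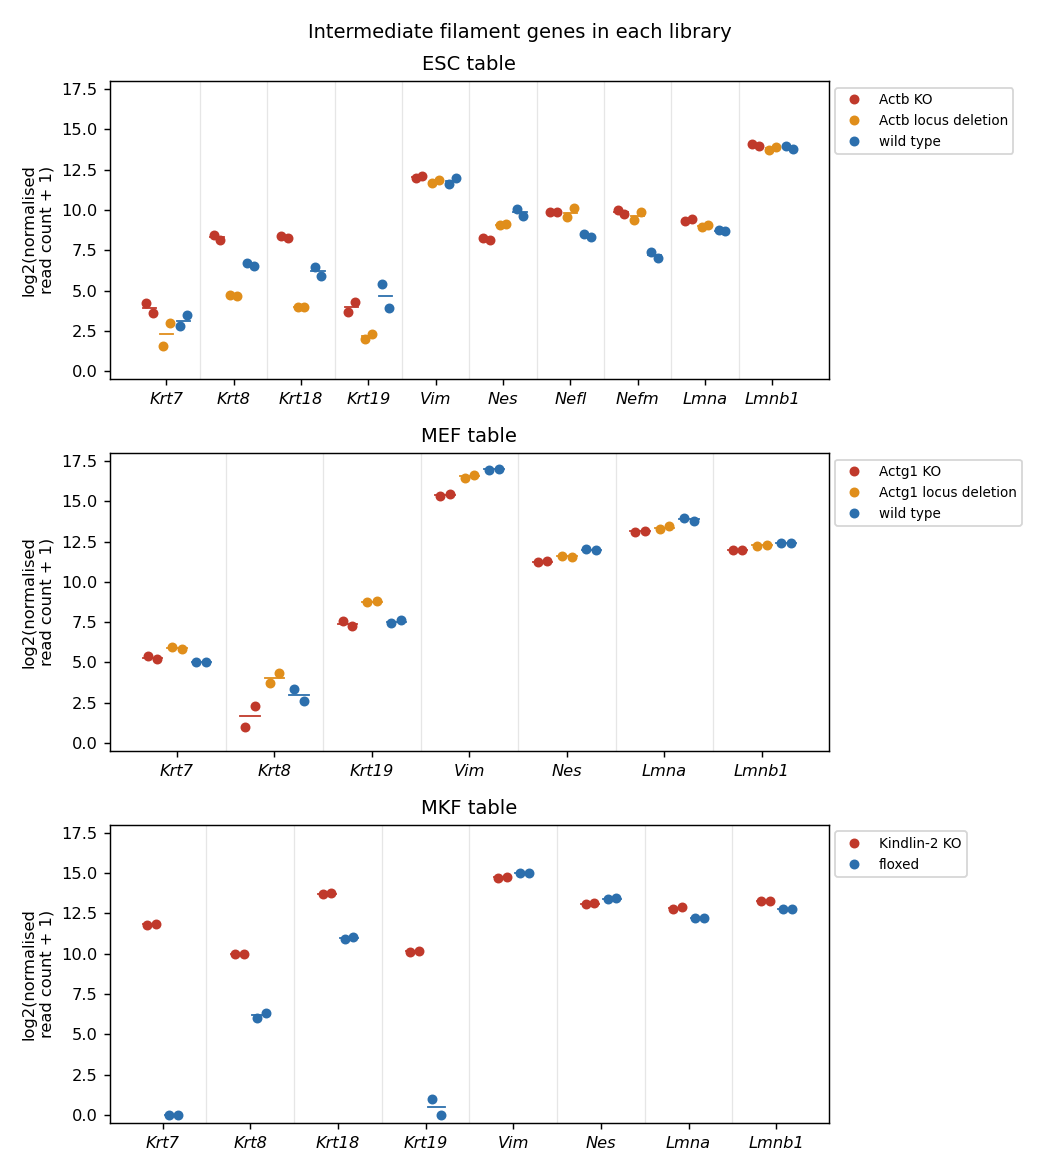
Normalised read counts of each gene in each library, as log2(value + 1), in the ESC, MEF and MKF tables; each point is 1 library and each line a group mean, with mutants left of their controls. The keratins of Kindlin-2 KO MKFs lie far above those of floxed MKFs (Krt7 at 3532 and 3659 in KO, 0 and 0 in floxed MKFs), and Vim of Actg1 KO MEFs lies below wild type (41304 and 43759 in KO, 126213 and 129947 in wild-type MEFs).

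In Kindlin-2 KO MKFs Krt18, which was already abundant in floxed MKFs, and Krt8, which was low there, rose, and Krt7 and Krt19, which were at or near 0 in floxed MKFs, reached 1092 or more in every KO library. Vim and Nes fell to 82.7% and 80.8% of their floxed level, and Lmna and Lmnb1 rose 1.52-fold and 1.38-fold. Of the 8 genes present, 6 rose and 2 fell, in a comparison in which 49.2% of all 18288 genes tested changed (24.3% rose and 24.9% fell). Every gene in this table reached at least 5 in some library. Krt7 and Krt19 did so through the KO alone, so they had to differ once they were present, and the count over 8 genes is given as a description. Of the other 6 genes 4 rose and 2 fell, with a median log2 fold change of 0.53, against 0.01 over all genes. Every adjusted p here and below is from limma with Benjamini-Hochberg adjustment over all genes tested in that comparison, the words rose and fell are kept for an adjusted p below 0.05, and log2 fold changes were computed from log2(value + 1).

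Krt7, Krt8 and Krt18 lie on chromosome 15 and moved together in KO MKFs, so the 250 bases before the RefSeq start of each (GRCm38.p6) are shown, read 5′ to 3′ on the strand of the gene. For Krt7 the window is chr15:101412153-101412402 on the plus strand, for Krt8 chr15:102004343-102004592 on the minus strand and for Krt18 chr15:102027966-102028215 on the plus strand. Capitals mark matches, on either strand, to CAGGTG, the E-box bound by repressors of epithelial genes such as Snail and Zeb factors, and to GGGCGG, the GC box bound by Sp1. A match on the opposite strand reads CACCTG or CCGCCC here.
Krt7: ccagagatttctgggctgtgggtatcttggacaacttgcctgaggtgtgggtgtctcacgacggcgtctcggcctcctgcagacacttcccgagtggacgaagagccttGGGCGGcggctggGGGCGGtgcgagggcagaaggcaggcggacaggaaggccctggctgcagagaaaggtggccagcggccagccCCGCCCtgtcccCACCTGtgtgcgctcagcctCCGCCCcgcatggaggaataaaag
Krt8: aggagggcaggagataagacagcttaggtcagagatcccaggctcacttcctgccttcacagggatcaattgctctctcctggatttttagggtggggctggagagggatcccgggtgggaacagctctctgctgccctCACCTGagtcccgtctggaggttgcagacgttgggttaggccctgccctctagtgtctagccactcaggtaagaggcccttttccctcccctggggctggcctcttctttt
Krt18: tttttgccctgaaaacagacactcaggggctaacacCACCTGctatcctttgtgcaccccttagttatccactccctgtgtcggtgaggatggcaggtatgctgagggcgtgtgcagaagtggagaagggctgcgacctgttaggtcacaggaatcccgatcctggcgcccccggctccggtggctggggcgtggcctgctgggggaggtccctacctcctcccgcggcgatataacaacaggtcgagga
Each of the 3 windows held 1 CAGGTG, on the strand opposite to the gene, with its first base 44 (Krt7), 111 (Krt8) and 214 (Krt18) bases before the start. Krt7 alone held GGGCGG, 4 times, 141, 128, 56 and 24 bases before the start, on both strands. CAGGTG was found in 17.2% and GGGCGG in 32.7% of all 32851 windows of that length. TGANTCA, the AP-1 motif (6.75% of windows), and the CArG box bound by serum response factor (1.47%) had no match in these 3 windows. The motifs were chosen after the sequences had been seen, and a match is a description of letters, not a binding site.

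Krt7, a type II chain of simple and ductal epithelia, stood at 3532 and 3659 normalised read counts in KO MKFs and at 0 and 0 in floxed MKFs. With 3 reads per library set as the floor for a count of 0, that is at least 1167-fold higher in the KO. Krt19, a type I chain of simple epithelia, stood at 1092 and 1169 in KO and at 1 and 0 in floxed MKFs. From the estimated reads, 2337 in KO and 1 in floxed MKFs, the ratio was 2254, with a 95% exact interval of 404 to 89060 that covers counting error only. No p is given for these 2 genes, since the KO libraries alone brought them into the table. Both genes were thus near the limit of detection in every floxed library and plainly present in every KO library. In bulk RNA, a larger share of keratin-positive cells and more keratin RNA per cell cannot be told apart.

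Krt18, the type I chain of the first embryonic epithelia, stood at 13347 and 13765 in KO and 1945 and 2082 in floxed MKFs, 6.73-fold more (log2 fold change 2.75, SE 0.0469, adjusted p = 3.56e-05). Krt8, its obligate type II partner, stood at 1024 and 1001 in KO and 64 and 78 in floxed MKFs, 14.3-fold more (log2 fold change 3.82, SE 0.112, adjusted p = 6.35e-05). The groups did not overlap for either gene. In floxed MKFs Krt18 was therefore abundant with little Krt8 beside it, and no Krt7 was seen. Counting both chains of each type per kilobase, type I exceeded type II by 9.65 and 9.91 times in KO and by 41.4 and 36.4 times in floxed MKFs, so the excess of type I RNA was smaller in the KO libraries but still present.

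Vim, the main filament gene of the floxed cells, stood at 26693 and 27629 in KO and 32542 and 33173 in floxed MKFs, so it fell (log2 fold change −0.27, SE 0.0355, adjusted p = 0.00313). Nes stood at 8559 and 9020 in KO and 10630 and 11115 in floxed MKFs, and fell as well (log2 fold change −0.31, SE 0.0441, adjusted p = 0.00445). For both genes the KO libraries lay below the floxed ones, and both stayed among the 5 highest of the 8 genes per kilobase in KO MKFs. Lmna rose to 7008 and 7496 in KO, against 4729 and 4825 in floxed MKFs (log2 fold change 0.60, SE 0.0452, adjusted p = 0.000604). Lmnb1 rose to 9629 and 9667 in KO, against 6937 and 7023 in floxed MKFs (0.47, SE 0.0312, adjusted p = 0.000432). Per kilobase of exon, the 4 keratins made up 48.8 to 48.9% of the summed intermediate filament value in KO and 10.6 to 11.1% in floxed MKFs, and Vim 25.2 to 25.3% in KO and 52.2 to 52.6% in floxed MKFs. These shares depend on the length used, as Vim stood higher by the longest transcript (9123 and 9443 per kb in KO MKFs). The calls of Vim and Nes were lost with any 1 library left out (adjusted p up to 0.0858 and 0.107) and without the trend in the moderation (0.0553 and 0.0556), and that of Lmna was lost without either floxed library (0.0649 and 0.0673). Krt8, Krt18 and Lmnb1 kept theirs in all 4 such fits. Neural markers summed to less in the KO, where Nes fell: of 5 present, 3 fell, Tubb3 (257 and 266 in KO, 957 and 1000 in floxed MKFs), Pax6 (4 and 4 in KO, 20 and 35 in floxed MKFs) and Gap43 (0 and 1 in KO, 19 and 17 in floxed MKFs), and their sum was 328 to 340 in KO and 1057 to 1132 in floxed MKFs. Pax6 and Gap43 were present through the floxed libraries alone, so their fall was fixed by their presence. Of the other 3 markers 0 rose and 1 fell, where 24.3% of all genes rose and 24.9% fell. Their median log2 fold change was −0.066, and Tubb3 made up most of the sum. The part of such cells in the fall of Nes was not tested.

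The rest of the keratin family and the genes that anchor it were then counted, where 24.3% of all genes rose and 24.9% fell. Of 48 other keratin genes looked for, 9 had a value in MKFs, 5 of them through the KO libraries alone: Krt4, a mucosal keratin (166 and 190 in KO, 0 and 1 in floxed MKFs), and Krt5, Krt14, Krt16 and Krt17, keratins of stratified epithelia, which stayed at 22 or lower in KO and at 0 in floxed MKFs. The other 4 rose, led by Krt20, a keratin of intestinal epithelium and urothelium (364 and 360 in KO, 33 and 32 in floxed MKFs; adjusted p = 6.14e-05). Among 16 genes of plakins and desmosomes tested, which link keratins to the cell surface and to other filaments, 11 rose and 1 fell, with a median log2 fold change of 0.58 against 0.01 over all genes. The largest rises were those of Evpl (764 and 841 in KO, 10 and 6 in floxed MKFs; log2 fold change 6.51), Pkp3 (237 and 289 in KO, 22 and 24 in floxed MKFs; 3.45) and Dsg2, a desmosomal cadherin (523 and 593 in KO, 77 and 77 in floxed MKFs; 2.84), and desmoplakin, Dsp, the main keratin anchor of desmosomes, stood at 7729 and 8220 in KO and 1097 and 1145 in floxed MKFs (2.83). Pkp1, a plakophilin, went the other way, with 28 and 21 in KO and 555 and 497 in floxed MKFs (−4.38, adjusted p = 0.000116). Plec, whose product plectin links vimentin and keratin filaments alike, stood at 17799 and 20582 in KO and 18369 and 18538 in floxed MKFs and did not pass (0.05, adjusted p = 0.592).

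Of the other filament genes, Nefh, the heavy neurofilament chain, stood at 142 and 141 in KO and 4 and 5 in floxed MKFs (4.70, adjusted p = 0.000155). Synm, the vimentin-binding synemin, stood at 141 and 123 in KO and 31 and 27 in floxed MKFs (2.15, adjusted p = 0.000529). Lmnb2, the other B-type lamin, fell to 601 and 622 in KO, against 1231 and 1231 in floxed MKFs (−1.01, adjusted p = 0.000177), opposite to Lmnb1 and Lmna. Of 15 partners of the lamina 4 rose and 7 fell, where 49.2% of all genes changed. Among those that fell was Syne1, a giant linker between the nuclear envelope and actin. It stood at 311 and 318 in KO and 1384 and 1417 in floxed MKFs (−2.15). Of 5 genes of lamin processing 3 rose and 1 fell, with Fntb, a subunit of the farnesyltransferase that modifies lamins, the most changed (390 and 378 in KO, 149 and 158 in floxed MKFs; 1.32).

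Markers of epithelial cells were set beside the keratins, in a comparison in which 49.2% of all genes changed (24.3% rose and 24.9% fell). All 10 of that list had a value, and their sum was 7468 to 7540 in KO and 81 to 94 in floxed MKFs. Of the 10, 4 were present through the KO libraries alone and so had to differ, among them Esrp1, an epithelial splicing factor (1114 and 1132 in KO, 1 and 0 in floxed MKFs), and the tight junction gene Cldn4 (595 and 598 in KO, 1 and 3 in floxed MKFs), and Prss8 through the floxed libraries alone. Of the other 5, 3 rose, among them Epcam (3430 and 3401 in KO, 26 and 11 in floxed MKFs) and Cdh1, which encodes E-cadherin (1399 and 1531 in KO, 10 and 16 in floxed MKFs). Grhl2, Rab25 and Prss8 were at 12 or lower in all 4 libraries. Of the 6 fibroblast markers present, 4 were there through the floxed libraries alone, among them Postn (1 and 0 in KO, 311 and 366 in floxed MKFs), Twist1 (3 and 1 in KO, 67 and 54 in floxed MKFs) and Pdgfrb (1 and 0 in KO, 10 and 11 in floxed MKFs). The other 2 were Col1a1, which fell, and Fbn1, which rose (149 and 154 in KO, 74 and 86 in floxed MKFs). The kidney tubule list, 5 of 8 present, summed to 7794 to 7850 in KO and 8931 to 9040 in floxed MKFs. Of these, 2 genes rose (Cdh16 and Pax2) and 2 fell (Lrp2 and Aqp1). Of mesothelial markers, whose tissue expresses Krt7 and Krt19, 3 of 6 were present, summing to 934 to 1026 in KO and 488 to 500 in floxed MKFs, nearly all of it Msln (1000 and 912 in KO, 492 and 480 in floxed MKFs). The part of a different mixture or type of cells in the keratin result was not tested.

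**Figure D2:**
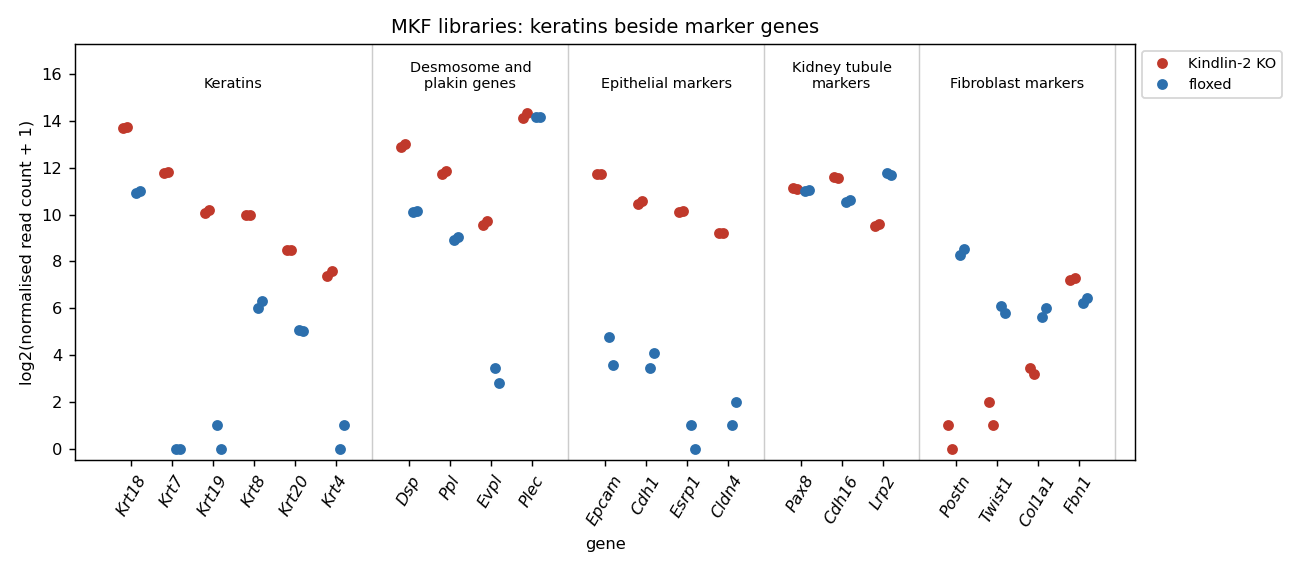
Keratins beside genes of desmosomes and plakins and markers of epithelial, kidney tubule and fibroblast cells in MKF libraries, as log2(normalised read count + 1); each point is 1 library, Kindlin-2 KO left of floxed. The keratins and epithelial markers shown are higher in KO (Epcam 3430 and 3401 in KO, 26 and 11 in floxed MKFs). Plec and Pax8 overlap or nearly so, Cdh16 and Fbn1 are higher, and Lrp2, Postn, Twist1 and Col1a1 are lower. Krt7, Krt19, Krt4, Esrp1 and Cldn4 are present through the KO libraries alone, and Postn and Twist1 through the floxed ones, so their separation was fixed. The genes were picked from their lists, and Grhl2, Rab25, Prss8 and Pkp1 are among those not shown.

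In Actb KO ESCs, Krt8 and Krt18 rose together, both neurofilament genes rose, Nes fell and Lmna rose a little, while Vim and Lmnb1 did not pass the test. Of the 10 genes 5 rose and 1 fell, where 4.88% of all 23054 genes tested changed (2.44% in each direction). Their median log2 fold change was 0.72, against 0.00 over all genes. Krt8 stood at 344 and 286 in KO and 105 and 92 in wild-type ESCs (log2 fold change 1.66, SE 0.188, adjusted p = 0.00332). Krt18 stood at 339 and 302 in KO and 88 and 60 in wild-type ESCs (2.12, SE 0.23, adjusted p = 0.00284). Both KO libraries lay above both wild-type libraries for each chain, by 3.20 and 4.33 times on average. The other keratins of the set stayed low: Krt7 was at 18 and 11 in KO and 6 and 10 in wild-type ESCs (0.78, adjusted p = 0.522), and Krt19 at 12 and 19 in KO and 41 and 14 in wild-type ESCs (−0.64, adjusted p = 0.575), where the groups overlapped.

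Nefm, the medium neurofilament chain, showed the largest change of the set in these cells, at 1033 and 865 in KO and 166 and 129 in wild-type ESCs (2.68, SE 0.195, adjusted p = 0.000437). Nefl, the light chain without which neurofilaments do not form, stood at 950 and 945 in KO and 372 and 314 in wild-type ESCs (1.47, SE 0.182, adjusted p = 0.00481). The shared exonic bases of these 2 genes make the split between them uncertain, and the groups did not overlap for either. Nes fell to 309 and 287 in KO, against 1081 and 786 in wild-type ESCs (−1.63, SE 0.159, adjusted p = 0.00167), that is to 31.9% of wild type. Lmna stood at 642 and 681 in KO and 425 and 409 in wild-type ESCs (0.66, SE 0.115, adjusted p = 0.0181). Lmnb1 was at 17632 and 16066 in KO and 15850 and 14405 in wild-type ESCs (0.16, adjusted p = 0.492), and Vim at 4122 and 4432 in KO and 3133 and 4011 in wild-type ESCs (0.27, adjusted p = 0.31), both without overlap between groups. With any 1 of the 4 libraries left out, limma called 0 of the 10 genes at an adjusted p below 0.05 (0.0579 at the lowest, for Nes without wild-type library 2), and 0 to 18 of all genes. Without the trend Krt8 and Nefm alone kept their call.

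In ESCs with the whole Actb locus deleted, the same keratin pair moved in the opposite direction, while the neurofilament genes again rose. Of the 10 genes 2 rose and 4 fell, where 11.2% of 23054 genes changed (5.19% rose and 6% fell), with a median of −0.40 against 0.01 over all genes. Krt8 stood at 26 and 24 in locus-deleted and 105 and 92 in wild-type ESCs (−1.93, SE 0.188, adjusted p = 0.000913), and Krt18 at 15 and 15 in locus-deleted and 88 and 60 in wild-type ESCs (−2.20, SE 0.23, adjusted p = 0.00117). That was 25.4% and 20.3% of the wild-type mean. Krt19 stood at 3 and 4 in locus-deleted and 41 and 14 in wild-type ESCs (−2.49, SE 0.546, adjusted p = 0.0234), a comparison of low values with a wide gap between the wild-type libraries. Krt7 was at 2 and 7 in locus-deleted and 6 and 10 in wild-type ESCs (−0.84, adjusted p = 0.426).

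Nefm stood at 661 and 928 in locus-deleted and 166 and 129 in wild-type ESCs (2.41, SE 0.195, adjusted p = 0.00038), and Nefl at 747 and 1103 in locus-deleted and 372 and 314 in wild-type ESCs (1.41, SE 0.182, adjusted p = 0.00291). Locus-deleted library 2 was the higher for both. Nes was at 530 and 558 in locus-deleted and 1081 and 786 in wild-type ESCs (−0.76, SE 0.159, adjusted p = 0.0194), a smaller fall than in the KO by the difference between the mutants given below. Lmna (500 and 547 in locus-deleted, 425 and 409 in wild-type ESCs; 0.33, adjusted p = 0.112), Lmnb1 (13795 and 15678 in locus-deleted, 15850 and 14405 in wild-type ESCs; −0.04, adjusted p = 0.876) and Vim (3246 and 3684 in locus-deleted, 3133 and 4011 in wild-type ESCs; −0.04, adjusted p = 0.906) did not pass. Without wild-type library 1 limma called 0 of the 10 genes, with 58 of all genes called and 5384 at an unadjusted p below 0.05, and without wild-type library 2 it called Krt18 alone. Without a locus-deleted library Krt8, Krt18, Nefl and Nefm kept their calls, while Nes and Krt19 lost theirs with any 1 of the 4 libraries left out.

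The difference between the Actb mutants was tested directly, and the keratin pair and Nes passed. Krt18 was higher in KO than in locus-deleted ESCs by a log2 difference of 4.33 (SE 0.23, adjusted p = 0.000122) and Krt8 by 3.60 (SE 0.188, adjusted p = 0.000122), and Nes was lower by −0.87 (SE 0.159, adjusted p = 0.0201). Here 2 of the 10 genes were higher and 1 was lower, where 4.88% of all genes differed (2.56% higher, 2.32% lower). For Nefm (0.27, SE 0.195, adjusted p = 0.532) and Nefl (0.06, SE 0.182, adjusted p = 0.903) the mutants overlapped. Krt19 (12 and 19 in KO, 3 and 4 in locus-deleted ESCs; 1.85, adjusted p = 0.105) and Krt7 (18 and 11 in KO, 2 and 7 in locus-deleted ESCs; 1.62, adjusted p = 0.187) did not pass. For both the mutants did not overlap, at low values. Vim, Lmna and Lmnb1 did not pass either. The calls of Krt8 and Krt18 were lost without either KO library (adjusted p up to 0.079) and that of Nes with any 1 library left out. With the replicate number as a block, which treats same-numbered ESC libraries as pairs, no call of the 10 genes changed in the 3 ESC comparisons, while the counts over all genes became 1850 (KO against wild type, 1126 without the block) and 1735 (KO against locus deletion, 1125 without it).

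Beyond the 10 genes, 7 of 48 other keratins had a value in ESCs. Over all genes, 4.88% changed in KO and 11.2% in locus-deleted ESCs. In KO ESCs limma called 0 of them, 1 at an unadjusted p below 0.05, and in locus-deleted ESCs 1, Krt17, which fell to 7 and 4, against 40 and 25 in wild-type ESCs (−2.37, adjusted p = 0.0101). Synm fell in both mutants, to 91 and 99 in KO and 77 and 95 in locus-deleted ESCs, against 182 and 164 in wild-type ESCs. Of 15 plakin and desmosome genes, 2 rose and 1 fell in KO ESCs and 5 rose and 2 fell in locus-deleted ESCs. Perp, a desmosomal membrane protein, rose in both (318 and 283 in KO, 261 and 304 in locus-deleted, 98 and 102 in wild-type ESCs). Dsp fell in KO ESCs, with 290 and 225 against 670 and 449 in wild-type ESCs (−1.10, adjusted p = 0.0279), while Krt8 and Krt18 rose there. Of 15 lamina partners 1 rose in KO ESCs, Syne1 (260 and 215 in KO, 135 and 116 in wild-type ESCs), and 3 rose and 1 fell in locus-deleted ESCs, the last being Lbr, the lamin B receptor (1506 and 1509 in locus-deleted, 2411 and 2182 in wild-type ESCs; −0.61, adjusted p = 0.00745).

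Trophectoderm, the first embryonic epithelium, uses Krt8 and Krt18, so its markers were set beside them. All 11 were present, with 6 below 10 in each wild-type library. In KO ESCs 4 rose and 1 fell, where 4.88% of all genes changed, and in locus-deleted ESCs 3 rose and 1 fell, where 11.2% changed. The 1 that fell in KO ESCs was not among the 4 largest changes. The sums were 2030 to 2217 in KO, 3327 to 3529 in locus-deleted and 2386 to 2576 in wild-type ESCs. Of the 4 that rose in KO ESCs, 3 rose in locus-deleted ESCs too, where the keratin pair fell. These were Rhox6, a placental homeobox gene with close copies (188 and 128 in KO, 637 and 881 in locus-deleted, 7 and 5 in wild-type ESCs), Rhox9, another of its family (32 and 27 in KO, 161 and 255 in locus-deleted, 2 and 3 in wild-type ESCs), and Cdx2, a trophectoderm transcription factor (16 and 31 in KO, 13 and 13 in locus-deleted, 1 and 3 in wild-type ESCs). Every gene of the ESC table reached at least 4 in some library. Rhox9 and Cdx2 did so through mutant libraries alone, so their presence favoured these rises. Eomes, at 230 and 231 in KO, 59 and 64 in locus-deleted and 130 and 138 in wild-type ESCs, was the 1 of 11 that rose in KO and fell in locus-deleted ESCs, as the keratin pair did. Elf5 was at 0 or 1 in the KO and wild-type libraries and reached 4 or more through the locus-deleted libraries alone, where the keratin pair fell. Primitive endoderm, which also uses Krt8 and Krt18, had 9 of 11 markers present, with sums of 7898 to 9350 in KO, 8387 to 10140 in locus-deleted and 6812 to 8268 in wild-type ESCs. In KO ESCs Dab2 rose (138 and 115 in KO, 27 and 39 in wild-type ESCs) and Gata4 fell (8 and 7 in KO, 34 and 28 in wild-type ESCs), and in locus-deleted ESCs Lamb1 rose (621 and 591 in locus-deleted, 462 and 380 in wild-type ESCs) and Gata4 fell (10 and 10 in locus-deleted, 34 and 28 in wild-type ESCs). Of the epithelial list 9 of 10 were present, and 1, Cdh1, changed, falling in both mutants (8280 and 8370 in KO, 7104 and 6929 in locus-deleted, 12186 and 11800 in wild-type ESCs).

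Neural markers were set beside the neurofilament genes, with 11 of 14 present. Over all genes, 4.88% changed in KO and 11.2% in locus-deleted ESCs. In KO ESCs 1 rose, Stmn3 (103 and 100 in KO, 52 and 48 in wild-type ESCs). In locus-deleted ESCs 1 rose, Pax6 (48 and 53 in locus-deleted, 7 and 5 in wild-type ESCs), and 4 fell, among them Gap43 (2 and 0 in locus-deleted, 40 and 27 in wild-type ESCs) and Sox1 (77 and 102 in locus-deleted, 178 and 225 in wild-type ESCs). Their sums were 3795 to 4231 in KO, 2999 to 3270 in locus-deleted and 3637 to 3738 in wild-type ESCs. The other neurofilament chain, Nefh, was at 1120 and 717 in KO and 908 and 516 in wild-type ESCs (0.39, adjusted p = 0.519). Fibroblast markers summed to 167 to 171 in KO, 147 to 153 in locus-deleted and 183 to 186 in wild-type ESCs. The part of such cells in the ESC results was not tested.

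In Actg1 KO MEFs, Vim fell to 33.2% of wild type, and Nes, Lmna and Lmnb1 fell with it, while none of the 3 keratins present passed the test. So 4 of the 7 genes fell, where 39.7% of all 21589 genes changed and 19.1% fell, with a median log2 fold change of −0.74 against 0.06 over all genes. Vim stood at 41304 and 43759 in KO and 126213 and 129947 in wild-type MEFs (−1.59, SE 0.083, adjusted p = 9.56e-06). Nes stood at 2414 and 2468 in KO and 4161 and 4008 in wild-type MEFs (−0.74, SE 0.0576, adjusted p = 5.22e-05). Vim took 0.203 to 0.213% of the summed values in KO and 0.587 to 0.598% in wild-type MEFs. Lmna was at 8859 and 9060 in KO and 15946 and 14273 in wild-type MEFs (−0.75, SE 0.0786, adjusted p = 0.000215), and Lmnb1 at 4003 and 4040 in KO and 5491 and 5451 in wild-type MEFs (−0.44, SE 0.0504, adjusted p = 0.000328). The groups did not overlap for any of the 4. Krt19 was at 191 and 150 in KO and 170 and 201 in wild-type MEFs (−0.13, adjusted p = 0.534), Krt7 at 41 and 36 in KO and 32 and 31 in wild-type MEFs (0.28, adjusted p = 0.351), and Krt8 at 1 and 4 in KO and 9 and 5 in wild-type MEFs (−1.29, adjusted p = 0.119). The 4 calls held with each library left out in turn. Rescaling to the upper quartile moved the median over all genes to 0.17, and the 4 genes still fell (Vim by 1.47, Lmnb1 by 0.33).

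In MEFs with the Actg1 locus deleted, Vim, Nes and Lmna fell and Krt19 and Krt7 rose. Of the 7 genes 2 rose and 3 fell, where 22% of all genes changed (9.46% rose and 12.6% fell), with a median of −0.16 against 0.00 over all genes. Vim was at 89417 and 101228 in locus-deleted and 126213 and 129947 in wild-type MEFs (−0.43, SE 0.083, adjusted p = 0.00906). Nes was at 3140 and 2964 in locus-deleted and 4161 and 4008 in wild-type MEFs (−0.42, SE 0.0576, adjusted p = 0.00194), and Lmna at 9834 and 11053 in locus-deleted and 15946 and 14273 in wild-type MEFs (−0.53, SE 0.0786, adjusted p = 0.00268). Each of the 3 lay below wild type in both libraries, as did Lmnb1, which did not pass (4862 and 4941 in locus-deleted, 5491 and 5451 in wild-type MEFs; −0.16, adjusted p = 0.0616) but fell after rescaling to the upper quartile (−0.21, adjusted p = 0.0105). Krt19 stood at 423 and 451 in locus-deleted and 170 and 201 in wild-type MEFs (1.24, SE 0.145, adjusted p = 0.001), Krt7 at 62 and 56 in locus-deleted and 32 and 31 in wild-type MEFs (0.88, SE 0.217, adjusted p = 0.0238), and Krt8 at 12 and 19 in locus-deleted and 9 and 5 in wild-type MEFs (1.06, adjusted p = 0.252). The call of Krt7 was lost with any 1 library left out, that of Vim in 2 of 4 and that of Lmna in 1 of 4 such fits. Without the trend Vim, Nes and Lmna lost theirs (adjusted p = 0.0835, 0.0602 and 0.0636).

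Between the Actg1 mutants, 5 of the 7 genes were lower in KO than in locus-deleted MEFs, where 45.2% of all genes differed and 20.7% were lower. The log2 differences were −1.16 for Vim (SE 0.083, adjusted p = 2.52e-05), −1.36 for Krt19 (SE 0.145, adjusted p = 0.000178), −0.32 for Nes (SE 0.0576, adjusted p = 0.0027), −0.29 for Lmnb1 (SE 0.0504, adjusted p = 0.00252) and −2.35 for Krt8 at its low values (SE 0.583, adjusted p = 0.0127). Krt7 (−0.60, adjusted p = 0.0542) and Lmna (−0.22, adjusted p = 0.0546) lay at the threshold. Rescaling to the upper quartile moved the median of all genes from 0.07 to 0.24 and ended the calls of Nes (adjusted p = 0.0643) and Lmnb1 (0.075). The call of Krt8 was lost in 3 of 4 fits with 1 library left out.

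The wider families behaved unevenly in MEFs, where 39.7% of all genes changed in KO and 22% in locus-deleted cells. Of 7 other keratins present, 3 rose and 1 fell in KO MEFs: Krt14, a basal epidermal keratin, stood at 35 and 40 in KO and 0 and 1 in wild-type MEFs, Krt16 at 35 and 40 in KO and 7 and 5 in wild-type MEFs, and Krt80 at 298 and 281 in KO and 186 and 167 in wild-type MEFs, while Krt15 was at 0 and 1 in KO and 14 and 16 in wild-type MEFs. Krt14 was present through the KO and Krt15 through the wild-type libraries alone, so those calls were fixed by their presence. Des, the muscle filament desmin, stood at 30 and 38 in KO and 8 and 12 in wild-type MEFs (1.69, adjusted p = 0.00906). In locus-deleted MEFs Synm rose, with 226 and 224 against 98 and 136 in wild-type MEFs, and the plakophilin gene Pkp2 stood at 1260 and 1338 in locus-deleted and 345 and 350 in wild-type MEFs (1.90, adjusted p = 2.06e-05). Of 13 plakin and desmosome genes 3 rose and 6 fell in KO and 1 rose and 6 fell in locus-deleted MEFs, Perp among those that fell in both, which was present through the wild-type libraries alone. Of 15 lamina partners 6 rose and 6 fell in KO MEFs, among them Sun2, an anchor between lamins and the cytoskeleton (3165 and 3270 in KO, 1261 and 1231 in wild-type MEFs; 1.37), and 1 rose and 3 fell in locus-deleted MEFs. Zmpste24, the protease that matures prelamin A, rose in KO (3507 and 3540) and fell in locus-deleted MEFs (2076 and 2082), against 2823 and 2903 in wild-type MEFs.

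Markers of cell types differed between these MEF groups as well. All 10 fibroblast markers were present, summing to 152931 to 160853 in KO, 40163 to 40530 in locus-deleted and 41751 to 45876 in wild-type MEFs. In KO MEFs 6 rose and 2 fell, where 39.7% of all genes changed. In locus-deleted MEFs 4 changed, all lower, where 22% of all genes changed. Dcn was at 8037 and 7653 in KO, 12 and 5 in locus-deleted and 17 and 14 in wild-type MEFs. Lum was at 1 and 0 in locus-deleted and 7 and 10 in wild-type MEFs, so 2 defining markers were near 0 in both groups. The 3 epithelial markers present summed to 22 in each KO library, 4 to 5 in locus-deleted and 2 to 11 in wild-type MEFs. Mesothelium, which expresses Krt7, Krt19 and Vim together, had 3 of 6 markers present, summing to 63 to 72 in KO, 289 to 347 in locus-deleted and 481 to 564 in wild-type MEFs. Msln fell in both mutants (64 and 58 in KO, 286 and 342 in locus-deleted, 560 and 477 in wild-type MEFs), and Wt1 rose in KO MEFs (6 and 4 in KO, 0 in every locus-deleted and wild-type library), through which alone it was present. Neural markers, of which 9 of 14 were present, summed to less in both mutants, where Nes and Vim fell, with 2039 to 2079 in KO, 2681 to 3184 in locus-deleted and 5600 to 5761 in wild-type MEFs. Of these 1 rose and 3 fell in KO, where 39.7% of all genes changed. In locus-deleted MEFs 0 rose and 5 fell, where 22% changed. Map2, a neuronal microtubule protein, made up most of each sum. It stood at 1489 and 1496 in KO, 2463 and 2940 in locus-deleted and 4747 and 4922 in wild-type MEFs. Stmn2 stood at 15 and 28 in KO, 1 and 1 in locus-deleted and 157 and 183 in wild-type MEFs. The 1 that rose in KO was Isl1 (88 and 100 in KO, 0 and 0 in locus-deleted, 2 and 3 in wild-type MEFs), present through the KO alone. The part of such differences in the Vim, Nes and keratin results was not tested.

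**Figure D3:**
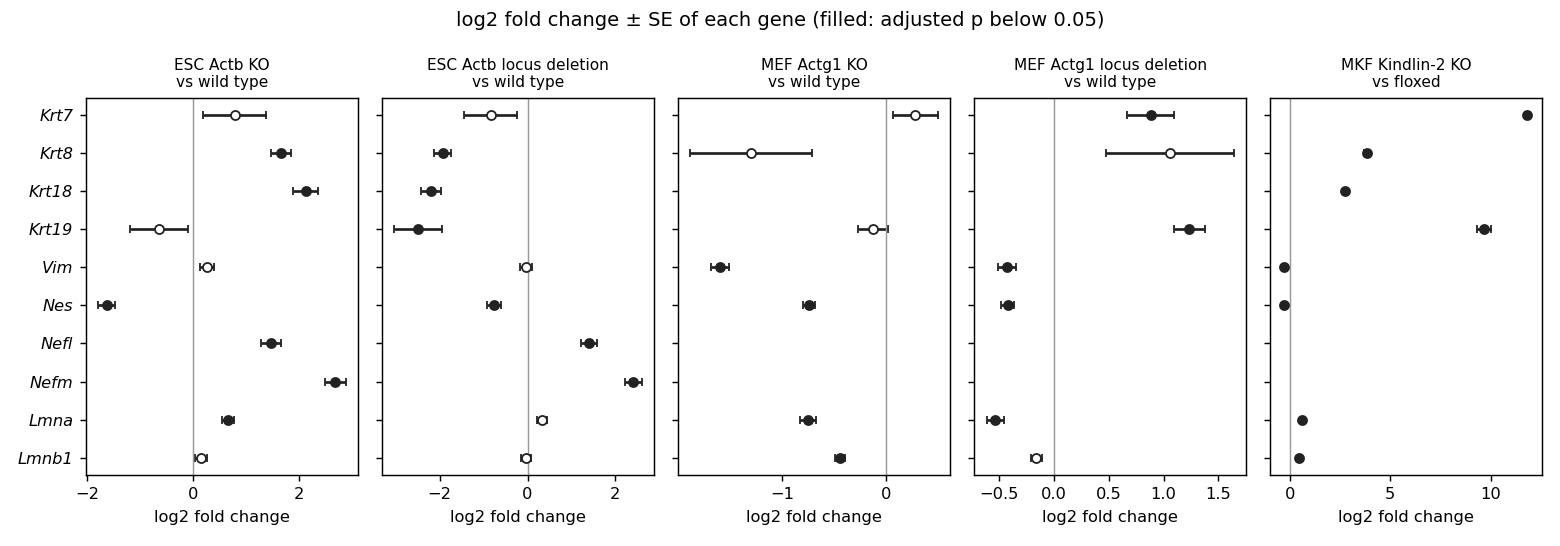
log2 fold change with its standard error for each gene in 5 comparisons of a mutant with its control (limma, 2 libraries a group); filled points passed an adjusted p below 0.05, and each panel has its own axis. Krt8 and Krt18 lie to the right for Actb KO (1.66 and 2.12) and to the left for Actb locus deletion (−1.93 and −2.20), and Nefl and Nefm to the right in both. The MKF values of Krt7 and Krt19 rest on floxed counts of 0 or 1 and depend on the pseudocount. The KO libraries alone brought Krt7 and Krt19 into the MKF table, so their filled points there were fixed by their presence and are no test.

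Across the tables, the values of a gene can be set side by side but not on 1 scale. Nes fell in each mutant against its control, by 0.31 (Kindlin-2 KO), 0.42 (Actg1 locus deletion), 0.74 (Actg1 KO), 0.76 (Actb locus deletion) and 1.63 (Actb KO) on the log2 scale. The 2 Actb comparisons share their wild-type libraries, as do the 2 Actg1 comparisons. The calls of Nes fail once a library is left out in ESCs and MKFs, and without the trend in locus-deleted MEFs. Vim fell in MEF and MKF mutants and did not pass in ESCs. Its call was lost with any 1 library left out in MKFs and in 2 of 4 such fits in locus-deleted MEFs. Lmna rose in Actb KO ESCs and in Kindlin-2 KO MKFs and fell in both Actg1 mutants. As a description over all 16 libraries, with log2 values centred on the control group of each table, the 3 genes closest to Vim among 12204 ranked were Prkar2a (r = 0.990), Wnk1 (0.986) and Rad18 (0.971), with Lmna at rank 862 (0.738). Those closest to Lmna were Spry2 (0.978), Eid1 (0.972) and Rmdn3 (0.970), with Lmnb1 at rank 228 (0.861). Genes were ranked if their mean was at least 10 in each table. Krt8 missed that in MEFs, and Nefm was not analysed in MEFs and MKFs, so neither was ranked. The libraries share tables and groups, so these values carry no test.

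A ratio of 2 genes within a library does not depend on the factor by which the library was scaled. The ratios here are of values not divided by length, so they serve to compare libraries and not the levels of the 2 genes. The log2 ratio of Lmna to Lmnb1 ran from −5.22 to −4.56 over ESCs, −0.55 to −0.37 over MKFs and 1.02 to 1.54 over MEFs, in tables that were normalised separately. It was −4.78 and −4.56 in Actb KO and −4.79 and −4.84 in locus-deleted ESCs, above −5.22 and −5.14 in wild-type ESCs. It was 1.15 and 1.17 in Actg1 KO and 1.02 and 1.16 in locus-deleted MEFs, below 1.54 and 1.39 in wild-type MEFs. In MKFs it was −0.46 and −0.37 in KO and −0.55 and −0.54 in floxed libraries. Mutants and controls did not overlap in any table, so Lmna was higher relative to Lmnb1 in the Actb and Kindlin-2 mutants and lower in the Actg1 mutants. The log2 ratio of Krt8 to Krt18 was 0.02 and −0.08 in Actb KO, 0.79 and 0.68 in locus-deleted and 0.25 and 0.62 in wild-type ESCs, so the KO libraries were lowest although the chains rose and fell together. The locus-deleted ratios rest on low values (Krt8 at 26 and 24, Krt18 at 15 and 15), and 0.68 lay close to the 0.62 of a wild-type library. Their place above wild type is therefore uncertain. The same ratio was −3.70 and −3.78 in KO and −4.93 and −4.74 in floxed MKFs. With 2 against 2 libraries an exact two-sided permutation test cannot give a p below 0.333, so these ratios are given without a test.

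**Figure D4:**
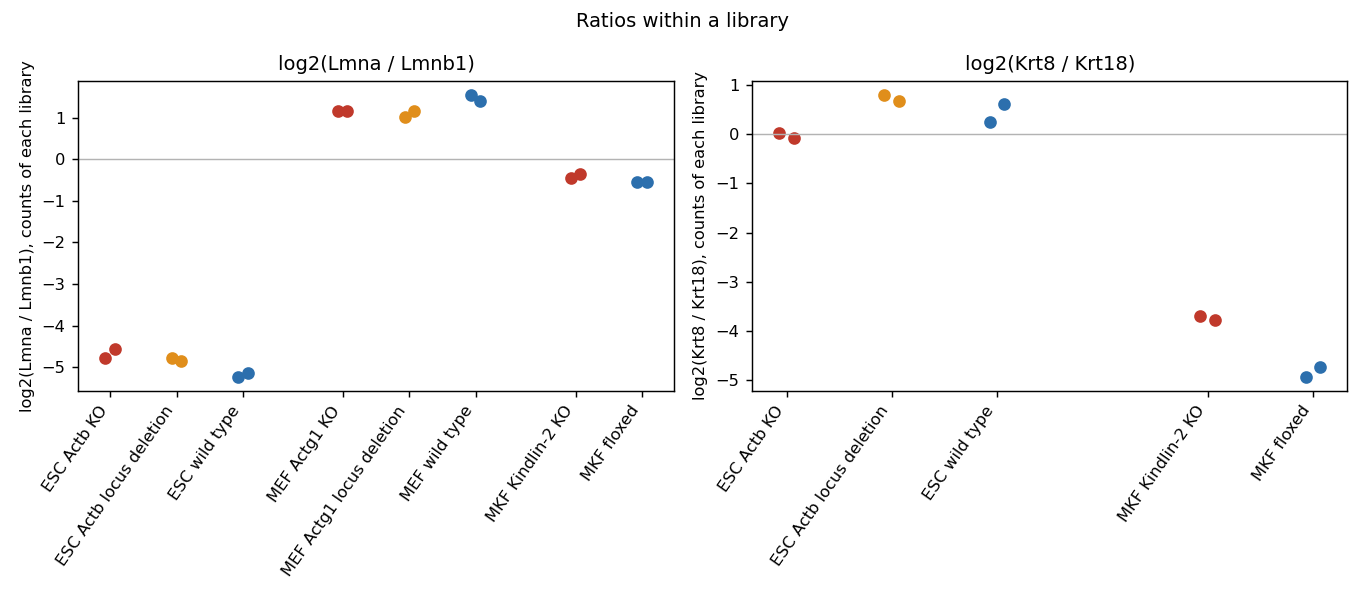
log2 ratios of Lmna to Lmnb1 (left) and of Krt8 to Krt18 (right) in each library, from the normalised read counts, with mutants left of their controls; Krt18 has no value in MEFs. The lamin ratio ranges from −5.22 in a wild-type ESC library to 1.54 in a wild-type MEF library, and within each table the mutants stand apart from the control.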

How the data were processed

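Libraries of total RNA were made, per the labels' protocols, with a miRNeasy micro kit, DNase on the column and a SMARTer stranded kit. Tools listed in the submitters' processing notes, without their roles, are DESeq2 1.14.1, featureCounts 1.6.0, Subread, STAR 2.5.3a and FastQC, and the listed builds are GRCm38 and mm10; the strand setting and the treatment of reads matching several genes are not given in the sources used here. Each deposited value is a whole-number score. From the values alone, it reads as a gene's read count after division by a factor of its library, rounded (1 read worth 0.715 to 1.30), and is called a normalised read count here. Every gene reached at least 4 in some ESC or MEF library and at least 5 in some MKF library, so genes below that were not analysed here.

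Since the values are not counts, the count test that had been planned for counts was not used. The log2(value + 1) was tested with limma 3.58.1 (R 4.3.3), with a mean per group, the libraries of a whole table fitted together, eBayes with its trend option, genes with a mean of at least 1 and two-sided p-values with Benjamini-Hochberg adjustment over all genes. All genes of the set that had a value passed that filter. The test was checked first on simulated data, in which libraries were drawn independently, without pairs. Of simulated 2-fold changes 82 to 94% were called in the ESC comparisons, 95 to 97% in MEFs and 84% in MKFs. Of 1.5-fold changes 20 to 34%, 73 to 74% and 58% were called, so changes of that size could often go uncalled in ESCs. Same-numbered ESC libraries deviated together (correlations of 0.678, 0.349 and 0.492 between groups), so their numbers may pair them. This comes from the values, as the labels give only numbers. Library 2 also had more estimated reads than library 1 in wild-type (18710000 and 13260000) and KO ESCs (22820000 and 12730000). Pairing and depth cannot be told apart here. Symbols, positions and exon lengths are from GENCODE M21 on GRCm38, and promoters from RefSeq, where 6 of the 10 genes had an entry.

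The 10 genes and the lists were chosen with earlier results of these data known. From each other list, the rule allowed the genes past the threshold, up to the 4 with the largest change per comparison, and defining markers as levels. Not all of these are named, and those that are were picked with their values seen. Krt14, Krt17, Plec, Dsp and Fbn1 in MKFs, Nefh in ESCs, Prss8, Rab25, Grhl2 and Elf5 are outside the rule and were also picked after their values had been seen. Intervals and floors cover counting error only, since without molecular identifiers several reads can come from 1 molecule. Alternatives were other scalings, pseudocounts of 0.5 and 5, no filter or a mean of at least 10, no trend, only the 2 groups compared, a replicate block, and each library left out.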

Additional observations from a re-analysis of the deposited data

Results flagged for a closer look

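In ESCs the effect of the Actb KO differed from that of the locus deletion for 3 of the 10 genes, where 4.88% of all genes differed, by the test of the difference itself in limma. KO minus locus-deleted log2 differences were 3.60 for Krt8 (344 and 286 in KO, 26 and 24 in locus-deleted ESCs), 4.33 for Krt18 (339 and 302 in KO, 15 and 15 in locus-deleted ESCs) and −0.87 for Nes (309 and 287 in KO, 530 and 558 in locus-deleted ESCs). For Krt8 and Krt18 the mutants lay on opposite sides of wild type.

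In MEFs the Actg1 KO and the locus deletion differed for 5 of the 7 genes tested, where 45.2% of all genes differed. KO minus locus-deleted log2 differences were −2.35 for Krt8, from values of 19 or lower, −1.36 for Krt19, −1.16 for Vim, −0.32 for Nes and −0.29 for Lmnb1. The differences of Nes and Lmnb1 did not pass after rescaling to the upper quartile.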

How the results depend on the processing

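With 2 libraries a group, the counts of calls depended on how the spread was estimated. Over all genes, without the trend 152 (Actb KO), 567 (Actb locus deletion), 58 (Actb KO against locus deletion) and 2082 (Actg1 locus deletion) were called; with only the 2 groups compared 272, 876, 214 and 2986; and with a replicate block 1850 (Actb KO) and 1735 (Actb KO against locus deletion). The block changed no call of the 10 genes. In MEFs and MKFs same-numbered libraries share only a number (correlations of their deviations −0.302 to 0.214 in MEFs and −0.0952 in MKFs), and the block gave 8159 (Actg1 KO), 4253 (Actg1 locus deletion), 9421 (between the Actg1 mutants) and 7496 (Kindlin-2 KO) calls. Of these genes, those called without the trend numbered 2 (Actb KO), 3 (Actb locus deletion) and 2 (Actg1 locus deletion), and after rescaling to the upper quartile 3 differed between the Actg1 mutants. With each library left out, the calls over all genes ranged from 0 to 18 (Actb KO; without KO library 1, limma called 0, with 2898 at an unadjusted p below 0.05), 58 to 370 (Actb locus deletion), 1 to 30 (between the Actb mutants), 4384 to 5879 (Actg1 KO), 1803 to 3321 (Actg1 locus deletion), 5759 to 8205 (between the Actg1 mutants) and 2112 to 3834 (Kindlin-2 KO). Calls among the 10 genes ranged from 0 to 0, 0 to 4, 0 to 2, 4 to 4, 2 to 4, 4 to 5 and 5 to 6 in the same order. The last of these ranges counts Krt7 and Krt19, whose difference was fixed by their presence through the KO libraries alone. The log2 fold change of 5 uncalled results crossed 0 in fits with a library left out: Krt19 in Actb KO (−1.38 to 0.10) and Actg1 KO (−0.30 to 0.047), Lmnb1 (−0.13 to 0.053) and Vim (−0.21 to 0.14) in Actb locus deletion, and Nefl between the Actb mutants (−0.22 to 0.34). By the longest transcript in place of the exon union, 6 of 10 genes kept their rank in Actb KO ESCs and 3 of 8 in Kindlin-2 KO MKFs. Of 753 values of single genes under alternatives, 651 kept direction and call, 89 lost and 6 gained a call, and 7 changed sign. The ratios moved by less than the spread between libraries with a pseudocount of 1. The causes of these changes were not tested.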
